A study of Mus musculus with 12 samples.

Results

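The Krüppel-like factors (KLFs) are zinc finger transcription factors, and 10 of them, each with a described role in fat cell formation, were followed here in differentiating 3T3-L1 cells. They were taken by gene symbol from a table of 55414 Ensembl identifiers. By their roles in 3T3-L1 and related cells, 6 are pro-adipogenic (Klf4, Klf5, Klf6, Klf9, Klf13 and Klf15) and 4 are anti-adipogenic (Klf2, Klf3, Klf7 and Klf10). 9 of the 10 had enough reads to be tested among 14435 genes, and Klf15 did not.

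The cells came from 3T3-L1, a mouse embryonic fibroblast line that can turn into fat cells and is labelled as mesenchymal stem cells, and polyadenylated RNA was sequenced in 12 libraries. There were 4 groups of 3: cells with an FHL2-GFP construct at day 2, cells with a CTRL-GFP construct at day 2, and both kinds of cell at day 0. Day 0 cells were past confluence and had received no inducer, and day 2 cells had been held in insulin, dexamethasone and isobutylmethylxanthine. All groups thus carried a GFP construct. Uninduced day 2 cells are not among the groups, so time in culture and induction cannot be told apart. The sources used here do not give the promoter of the construct, whether the line is a clone, or whether the 3 libraries of a group came from separate cultures, so the p-values reflect only library-to-library spread, which may be technical.

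KLFs bind GC-rich and CACCC-containing DNA through their C-terminal zinc fingers, and the family works as a relay in the preadipocyte. In 3T3-L1 cells Klf4 acts with Egr2 on the promoter of Cebpb, the C/EBP factors then switch on Klf5, and Klf5 acts with them on Pparg, the main regulator of the adipocyte. Klf2 represses the Pparg promoter and Klf3 recruits the corepressor CtBP to that of Cebpa, while Klf9 and Klf15 are also known as genes that glucocorticoids switch on.

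The libraries held 10047708 to 18081275 counts at day 2 and 14686042 to 21872139 at day 0. Levels are CPM, the counts of a gene scaled to library size, after TMM scaling, which aligns the libraries on the bulk of their genes. Fhl2 itself, at 18.7, 9.92 and 22.6 CPM in FHL2-labelled and 13.9, 14.2 and 21.0 CPM in control libraries at day 2, was not higher beyond the spread (adjusted p = 0.914). At day 0 it had 67.4, 58.8 and 62.0 CPM in FHL2-labelled and 58.9, 61.0 and 63.6 CPM in control libraries (adjusted p = 1.00). Whether a transcript of the construct is counted there is not given, so the line is named by its label throughout. The 10 preadipocyte and mesenchymal markers summed to between 20918 and 23880 CPM in each library, a sum carried by Dlk1, Col3a1, Col1a1 and Vim. Single markers moved within it, as Ly6a averaged 201 CPM at day 2 and 43.3 CPM at day 0 in the FHL2-labelled line, and 131 and 40.5 CPM in control. Between the lines edgeR called 1 of the 9 tested markers at day 0 (Thy1, higher in the FHL2-labelled line), where 0.0485% of all genes passed. At day 2 it called 3 (Thy1 and Ly6a higher, Col1a1 lower), where 2.07% of all genes passed. The part of these markers in the KLF results was not tested. Of 5 mature adipocyte markers, 4 had counts at day 2 (sum 13.3 to 21.96 CPM in FHL2-labelled and 38.0 to 62.5 CPM in control libraries) and 1 at day 0 (at most 1.40 CPM). Markers of blood, endothelium, epithelium and muscle each summed to at most 5.13 CPM, and of the bone and cartilage markers Sox9 made up nearly all of a sum of 147 to 249.7 CPM. Fewer genes were detected at day 2 (12689 to 16131) than at day 0 (17977 to 18811), with control replicate 3 and FHL2-labelled replicates 1 and 2 of day 2 the lowest.

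The change between the days followed the GC content of genes, and the members span a wide part of it, as their transcripts run from 42.4% GC (Klf6) to 61.6% GC (Klf2). Over 5 equal classes of tested genes by GC content, the median log2 fold change at day 2 over day 0 was -1.63 in the FHL2-labelled and -1.79 in the control line in the lowest class. In the highest class it was 0.69 and 0.73. Each change with induction is therefore set beside the median of its own class, and beside its value after a correction that removes the trend with GC content in each library. Its source was not tested.

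The promoters shown here are those of Klf6, Klf9, Klf2, Klf3 and Klf7. These members were called lower at day 2 in both lines before the correction for GC content. The windows span 250 bases up to the start of the gene in RefSeq on GRCm38.p6, Klf6 at chr13:5861239-5861488 on the plus strand, Klf9 at chr19:23140976-23141225 on the plus strand, Klf2 at chr8:72318812-72319061 on the plus strand, Klf3 at chr5:64803271-64803520 on the plus strand and Klf7 at chr1:64121390-64121639 on the minus strand. RefSeq windows were at hand for 8 of the 10 members. They are written 5′ to 3′ on the strand of the gene, and capitals mark the GC box GGGCGG or its reverse complement, a core of the sites that KLF and SP proteins bind.
Klf6: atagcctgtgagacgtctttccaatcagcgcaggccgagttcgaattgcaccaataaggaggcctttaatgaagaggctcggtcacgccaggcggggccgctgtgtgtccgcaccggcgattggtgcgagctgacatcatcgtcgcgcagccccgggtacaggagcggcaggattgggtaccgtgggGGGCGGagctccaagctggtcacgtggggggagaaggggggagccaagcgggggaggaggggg
Klf9: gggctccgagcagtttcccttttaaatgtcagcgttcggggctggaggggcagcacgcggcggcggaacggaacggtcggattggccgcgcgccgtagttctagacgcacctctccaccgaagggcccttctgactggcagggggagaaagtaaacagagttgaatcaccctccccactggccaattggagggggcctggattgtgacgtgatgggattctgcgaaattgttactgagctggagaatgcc
Klf2: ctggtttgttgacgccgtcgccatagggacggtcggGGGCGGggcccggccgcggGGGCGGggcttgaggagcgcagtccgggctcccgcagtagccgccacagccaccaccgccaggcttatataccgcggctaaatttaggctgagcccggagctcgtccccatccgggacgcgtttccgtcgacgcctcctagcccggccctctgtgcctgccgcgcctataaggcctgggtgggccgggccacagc
Klf3: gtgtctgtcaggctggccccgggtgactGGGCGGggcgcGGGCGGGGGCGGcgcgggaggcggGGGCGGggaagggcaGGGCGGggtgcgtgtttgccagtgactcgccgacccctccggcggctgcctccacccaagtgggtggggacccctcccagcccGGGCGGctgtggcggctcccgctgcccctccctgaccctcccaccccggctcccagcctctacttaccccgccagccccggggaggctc
Klf7: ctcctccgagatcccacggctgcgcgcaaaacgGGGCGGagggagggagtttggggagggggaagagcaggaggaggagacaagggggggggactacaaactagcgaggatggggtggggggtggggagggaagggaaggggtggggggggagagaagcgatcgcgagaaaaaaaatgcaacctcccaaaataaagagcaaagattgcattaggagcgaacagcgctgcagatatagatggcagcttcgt
The GC box occurred 6 times in the window of Klf3, 2 times in that of Klf2, once in those of Klf6 and Klf7, and not in that of Klf9, against 32.7% of all 32851 RefSeq windows with a match. The CACCC core, also counted on both strands, occurred 5 times in Klf3, 3 times in Klf7 and once each in Klf9 and Klf2, with a match in 52% of all windows. CCAAT occurred 4 times in Klf6 and 3 times in Klf9 and in none of the other windows shown (33.8% of all windows). The core TGACG of the cyclic AMP element that CREB binds occurred once each in Klf9 and Klf2 (17.8% of all windows), and the full element TGACGTCA occurred in none of the members (1.55% of all windows). The core AGAACA of glucocorticoid receptor sites was likewise found in none of the 8 windows (16.1% of all windows), which says only that these letters are not in this stretch. No motif searched was present in all 5 windows shown. After the correction for GC content only Klf6 and Klf2 of these members stayed called lower in both lines, and Klf7 in the FHL2-labelled line. Klf4 and Klf13, whose windows are not shown, were then called lower in both lines. The windows shown held from 59.2% GC (Klf7) to 78.4% GC (Klf3), against a median of 52.4% over all windows. The shares of all windows given here are not adjusted for this.

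**Figure D1:**
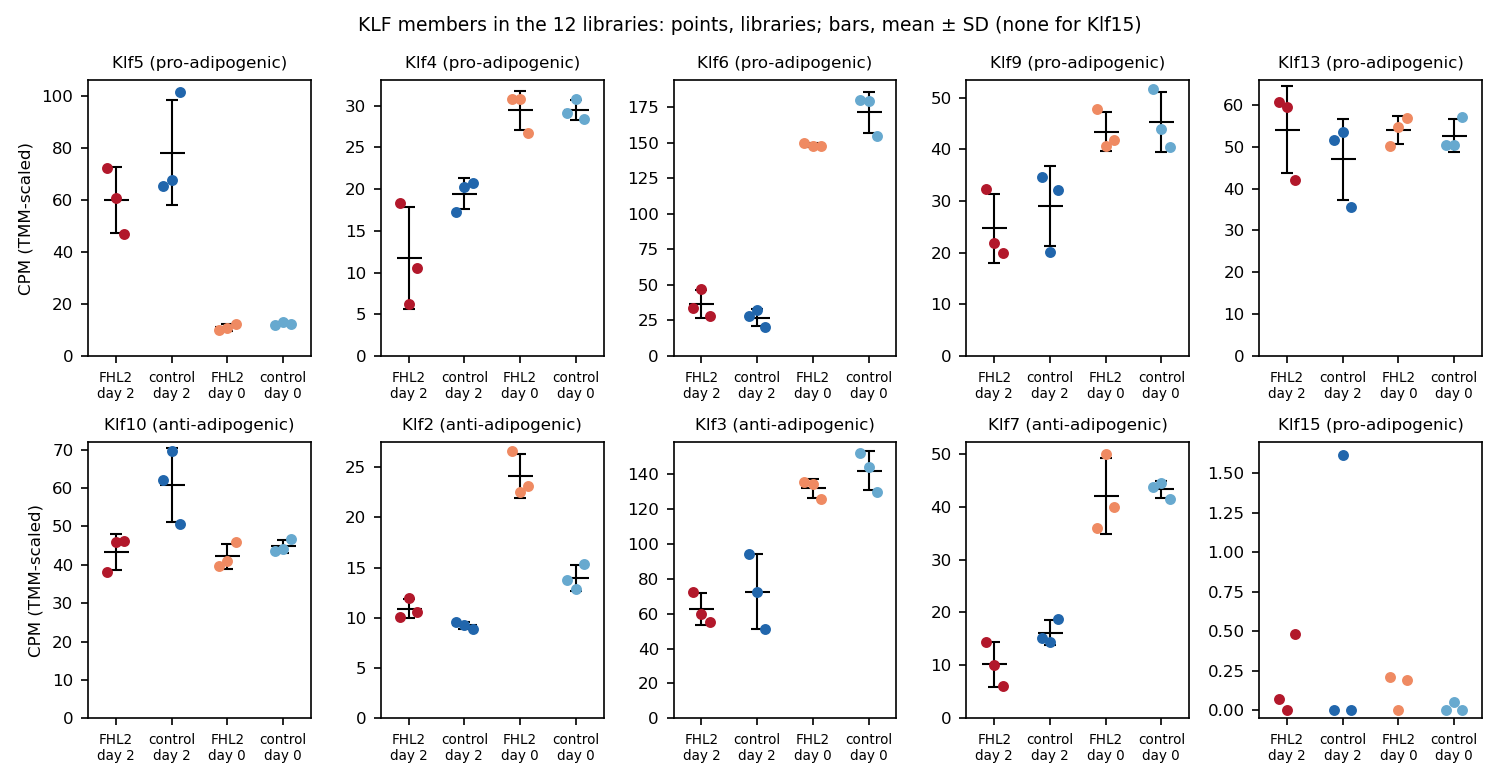
Level of each of the 10 KLF members in CPM (TMM-scaled, linear axis) in FHL2-labelled and control libraries of day 2 and day 0. Points are single libraries, bars the mean ± SD of 3 libraries (none for Klf15, which had 41 counts in all). Klf5 stands higher and Klf6, Klf3, Klf7 and Klf2 stand lower in every day 2 library than in any day 0 library of the same line.

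Induction was accompanied by a change in most of the family, with Klf5 alone rising strongly. In the FHL2-labelled line 1 of 9 tested members rose and 6 fell, where 56% of all genes tested passed (25.8% higher and 30.2% lower). In the control line 2 rose and 5 fell, against a background of 57.1% (26.3% higher and 30.8% lower). Directions were not sorted by role. Of the 5 tested pro-adipogenic members 1 rose and 3 fell in the FHL2-labelled line and 1 rose and 2 fell in control. Of the 4 anti-adipogenic members 0 rose and 3 fell in the FHL2-labelled line, and 1 rose and 3 fell in control. The median log2 fold change was -0.82 for pro- and -1.11 for anti-adipogenic members in the FHL2-labelled line (-0.11 over all genes), and -0.60 and -0.78 in control (-0.14 over all genes). After the correction for GC content 2 rose and 5 fell in the FHL2-labelled line (39.9% of all genes passed) and 2 rose and 4 fell in control (39.8%). The days did not overlap for 7 of 9 members in the FHL2-labelled line (66.2% of all genes tested) and for 8 of 9 in control (68.7%). Klf5, Klf6 and Klf2 were called in the same direction in both lines with and without this correction.

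**Figure D2:**
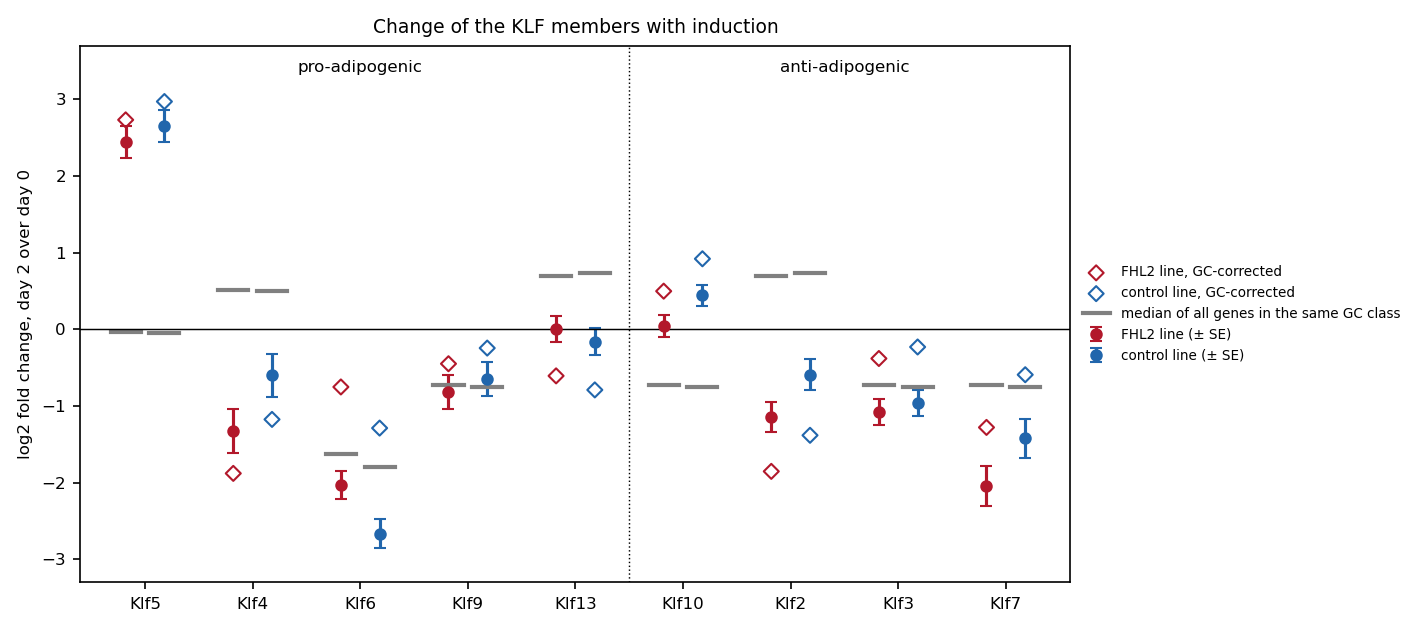
Log2 fold change of the 9 tested members at day 2 over day 0 in the FHL2-labelled (red) and the control line (blue), with pro-adipogenic members left of the dotted line. Filled points are edgeR estimates ± SE, open diamonds the values after the correction for GC content, and grey bars the median of all genes in the same GC class. Klf5 and Klf10 lie above the median of their class in both lines, Klf9 lies near it, and the other members lie below theirs.

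Klf5 (ENSMUSG00000005148), which C/EBP factors switch on and which acts on the Pparg promoter, rose in both lines. Before the correction for GC content it was the 1 member called higher in both, and after it Klf10 was called higher in both as well. Klf5 had 72.3, 60.6 and 46.9 CPM at day 2 against 9.97, 10.7 and 12.4 CPM at day 0 in FHL2-labelled libraries. In control libraries it had 65.3, 67.5 and 101 CPM at day 2 against 11.8, 13.1 and 12.4 CPM at day 0. Every day 2 library lay above every day 0 library, and the highest, control replicate 3, was also the library with the fewest genes detected. The rise was 5.42-fold in the FHL2-labelled line (log2 fold change 2.44, with SE 0.21 and adjusted p = 2.90e-07) and 6.26-fold in control (log2 fold change 2.65, with SE 0.21 and adjusted p = 1.35e-07). Genes of the same GC class had medians of -0.03 and -0.05, and the corrected changes of Klf5 were 2.73 and 2.97.

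Klf4 (ENSMUSG00000003032), the early activator of Cebpb, was lower at day 2. It had 18.3, 6.23 and 10.6 CPM at day 2 against 30.8, 30.8 and 26.7 CPM at day 0 in FHL2-labelled libraries. Control libraries had 17.3, 20.2 and 20.8 CPM at day 2 against 29.2, 30.8 and 28.4 CPM at day 0. The days did not overlap in either line, and the FHL2-labelled libraries of day 2 were spread widely among themselves, with replicate 1 the highest. Klf4 fell by 1.33 on the log2 scale in the FHL2-labelled line (SE 0.29, adjusted p = 0.00119). The control change of -0.60 did not pass (95% interval -1.20 to 0.0022, adjusted p = 0.0826). Its GC class rose at the median (0.51 in FHL2-labelled, 0.49 in control), and after the correction Klf4 was called lower in both lines (-1.88 and -1.17, adjusted p = 0.000148 and 0.00487). A single time point at day 2 cannot show the transient induction for which Klf4 is known in the first hours.

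Klf6 (ENSMUSG00000000078), which represses the preadipocyte factor Dlk1 and so favours differentiation, had the largest fall of the family in control. FHL2-labelled libraries had 33.4, 47.3 and 28.2 CPM at day 2 against 149.8, 147 and 147.8 CPM at day 0. Control libraries had 28.1, 32.0 and 20.6 CPM at day 2 against 180.2, 178.9 and 154.5 CPM at day 0. All day 2 libraries lay far below all day 0 libraries. Klf6 fell by 2.03 on the log2 scale in the FHL2-labelled line (SE 0.18, adjusted p = 4.80e-07) and by 2.66 in control (SE 0.19, adjusted p = 4.67e-08). Its GC class fell as well at the median (-1.63 and -1.79). After the correction the falls of Klf6 were called at -0.75 and -1.29 (adjusted p = 0.00221 and 2.99e-05). Klf2 then fell more in both lines (-1.85 and -1.38). Dlk1 did not pass the test (log2 fold change -0.04 in the FHL2-labelled line and 0.07 in control, adjusted p = 0.741 and 0.534), and after the correction it was called lower (-0.52 and -0.42, adjusted p = 0.000430 and 0.00229).

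Klf9 (ENSMUSG00000033863), a glucocorticoid-induced factor that acts on the Pparg promoter in mid-differentiation, did not rise. It had 32.3, 21.96 and 19.9 CPM at day 2 against 47.8, 40.7 and 41.8 CPM at day 0 in FHL2-labelled libraries, and 34.6, 20.1 and 32.1 CPM at day 2 against 51.7, 43.9 and 40.4 CPM at day 0 in control libraries. The days did not overlap in either line. Klf9 fell by 0.82 on the log2 scale in the FHL2-labelled line (SE 0.22, adjusted p = 0.00604) and by 0.65 in control (SE 0.22, adjusted p = 0.0215), about as much as the median of its GC class (-0.73 and -0.76). Neither call held after the correction (-0.45 and -0.24, adjusted p = 0.144 and 0.436). The control call was also lost without day 0 replicate 1 (adjusted p = 0.0848) or day 2 replicate 2 (-0.41, adjusted p = 0.111). In the same libraries Fkbp5, which dexamethasone switches on and whose protein holds the receptor of glucocorticoids in check, rose by 4.07 (adjusted p = 1.90e-11) and 3.82 (adjusted p = 1.56e-11) on the log2 scale.

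Klf13 (ENSMUSG00000052040), an activator of Pparg in mouse and pig preadipocytes, had the smallest estimated changes of the tested members before correction. FHL2-labelled libraries had 60.5, 59.6 and 42.0 CPM at day 2 against 50.2, 54.65 and 56.8 CPM at day 0. Control libraries had 51.6, 53.5 and 35.7 CPM at day 2 against 50.5, 50.3 and 57.1 CPM at day 0. The days overlapped in both lines. The log2 fold change was 0.0034 in the FHL2-labelled line (95% interval -0.37 to 0.37, adjusted p = 0.989) and -0.16 in control (-0.53 to 0.21, adjusted p = 0.451). Its GC class rose at the median (0.69 and 0.73), and the correction made Klf13 a called fall in both lines (-0.61 and -0.79, adjusted p = 0.00957 and 0.00173).

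Klf15 (ENSMUSG00000030087), known for its rise late in adipogenesis and for driving the glucose carrier gene Slc2a4, was barely detected. It had 1, 0 and 8 counts at day 2 against 5, 0 and 4 at day 0 in FHL2-labelled libraries, and 0, 22 and 0 counts at day 2 against 0, 1 and 0 at day 0 in control libraries. Thus 22 of its 41 counts came from control day 2 replicate 2. In the libraries with no count, a count of 0 allows a level of up to 0.136 to 0.325 CPM (3 counts each, counting error only). Without the filter on low counts Klf15 did not pass in either line (adjusted p = 0.941 in FHL2-labelled and 0.0801 in control). Slc2a4 had 3 counts in all 12 libraries.

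Among the anti-adipogenic members, Klf7 (ENSMUSG00000025959), which blocks adipocyte gene expression when overexpressed in preadipocytes, fell the most before the correction for GC content, after which Klf2 fell more. It had 14.5, 9.99 and 6.12 CPM at day 2 against 36.0, 49.96 and 40.0 CPM at day 0 in FHL2-labelled libraries. Control libraries had 15.3, 14.5 and 18.8 CPM at day 2 against 43.8, 44.5 and 41.5 CPM at day 0. The days were clearly apart in both lines. Klf7 fell by 2.04 on the log2 scale in the FHL2-labelled line (SE 0.26, adjusted p = 1.17e-05) and by 1.42 in control (SE 0.25, adjusted p = 0.000244). Its GC class stood at -0.73 and -0.76, and after the correction the FHL2-labelled call held (-1.28, adjusted p = 0.00140) and the control call did not (-0.59, adjusted p = 0.0858).

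Klf3 (ENSMUSG00000029178), the partner of CtBP that restrains Cebpa, had 72.7, 59.7 and 55.3 CPM at day 2 against 135, 134.5 and 126 CPM at day 0 in FHL2-labelled libraries. In control libraries it had 94.1, 72.4 and 51.5 CPM at day 2 against 152, 144 and 129.9 CPM at day 0. Day 2 was lower throughout. It fell by 1.08 on the log2 scale in the FHL2-labelled line (SE 0.17, adjusted p = 0.000105) and by 0.96 in control (SE 0.17, adjusted p = 0.000265). The correction for GC content reduced this to -0.38 and -0.23 (adjusted p = 0.0588 and 0.246), so that neither call held. Gm20033, an annotated gene on the opposite strand of Klf3, had 891 counts against 22355 for Klf3, and no source used here states how the counting treated strand.

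Klf2 (ENSMUSG00000055148), the repressor of the Pparg promoter, fell in both lines although the median gene of its GC class was higher at day 2. FHL2-labelled libraries had 10.1, 11.97 and 10.6 CPM at day 2 against 26.6, 22.6 and 23.1 CPM at day 0. Control libraries had 9.565, 9.33 and 8.87 CPM at day 2 against 13.7, 12.8 and 15.4 CPM at day 0. Day 2 libraries of both lines were close to one another, and the 2 lines stood apart at day 0. Klf2 fell by 1.14 on the log2 scale in the FHL2-labelled line (SE 0.20, adjusted p = 0.000234) and by 0.59 in control (SE 0.20, adjusted p = 0.0215). The medians of its GC class were 0.69 and 0.73, and the corrected changes were -1.85 (adjusted p = 4.32e-06) and -1.38 (adjusted p = 7.05e-05). The uncorrected control call was lost without day 0 replicate 1 or 3 (adjusted p = 0.0501 and 0.0795), without day 2 replicate 2 or 3 (0.0541 and 0.0557), and when the control libraries were fitted by themselves (0.0723).

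Klf10 (ENSMUSG00000037465), a TGF-beta-inducible factor that restrains Cebpb in 3T3-L1 cells, was the anti-adipogenic member that did not fall. It had 38.0, 46.0 and 46.1 CPM at day 2 against 39.8, 40.9 and 45.9 CPM at day 0 in FHL2-labelled libraries, which overlapped. Control libraries had 62.2, 69.5 and 50.6 CPM at day 2 against 43.7, 44.0 and 46.8 CPM at day 0, and did not overlap. The log2 fold change was 0.04 in the FHL2-labelled line (95% interval -0.27 to 0.35, adjusted p = 0.830), and Klf10 rose by 0.44 in control (SE 0.14, adjusted p = 0.0163). Its GC class fell (-0.73 and -0.76), and after the correction Klf10 was called higher in both lines (0.50 and 0.92, adjusted p = 0.00683 and 5.50e-05). The uncorrected control call was lost without day 0 replicate 1 or 2 (adjusted p = 0.0629 and 0.0607) and without day 2 replicate 2 (0.0783).

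Set on a scale per kilobase of annotated exon, which allows genes to be compared, the leading member differed between the days. These levels are not corrected for GC content. At day 0 Klf6 led in all 6 libraries, at 33.8 ± 0.294 CPM per kilobase in FHL2-labelled and 39.0 ± 3.29 in control libraries (SD, n = 3 each). The next level belonged to Klf2 in the FHL2-labelled line (13.0 ± 1.18) and to Klf3 in control (12.6 ± 0.999), neither of which overlapped Klf6. At day 2 Klf5 (11.5 ± 2.45 in FHL2-labelled, 15.01 ± 3.89 in control) and Klf10 (10.4 ± 1.11 and 14.5 ± 2.28) headed the order, and the pair overlapped in both lines. In the FHL2-labelled line both also overlapped the next member, Klf6, while in control neither overlapped the next, Klf3. The levels that followed at day 2, those of Klf6, Klf13, Klf2, Klf3, Klf9 and Klf4, each overlapped their neighbour in the FHL2-labelled order, and likewise from Klf3 to Klf2 in control. Klf7 and Klf15 were the lowest in both lines at day 2, and Klf5 and Klf15 at day 0. Per kilobase of the longest transcript the first place was the same in each group. The exons of Klf3 span 11243 bases against 5221 in its longest transcript, and on that scale Klf3 (25.2) and Klf10 (13.9) stood ahead of Klf2 (13.0) in the FHL2-labelled line at day 0.

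The summed level of the family was lower at day 2 in these units, which carry no correction for GC content. The GC class of Klf6, the leading member at day 0, had median log2 fold changes of -1.63 in the FHL2-labelled and -1.79 in the control line. How far the trend with GC content enters the sums and shares was not tested. The sum over the 10 members was 65.1, 61.0 and 51.3 CPM per kilobase at day 2 against 103, 101.5 and 100.7 at day 0 in FHL2-labelled libraries. In control libraries it was 69.0, 68.7 and 66.2 at day 2 against 107, 104.9 and 99.1 at day 0. The share of the pro-adipogenic members in the sum was 64.9%, 60.6% and 56.2% at day 2 against 60.9%, 60.5% and 60.7% at day 0 in FHL2-labelled libraries, which overlapped. In control it was 56.1%, 56.5% and 64.0% at day 2 against 65.6%, 65.9% and 63.5% at day 0. Control replicate 3 of day 2, the library with the fewest genes detected, was the 1 control library of day 2 to reach the day 0 range. Within that share Klf6 made up 13.97 ± 3.24% of the family at day 2 and 33.2 ± 0.214% at day 0 in the FHL2-labelled line, and Klf5 made up 19.4 ± 1.89% at day 2 and 2.09 ± 0.262% at day 0 (SD, n = 3 each). As these are sums of levels in bulk RNA, fewer cells with a transcript and less transcript per cell cannot be told apart.

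**Figure D3:**
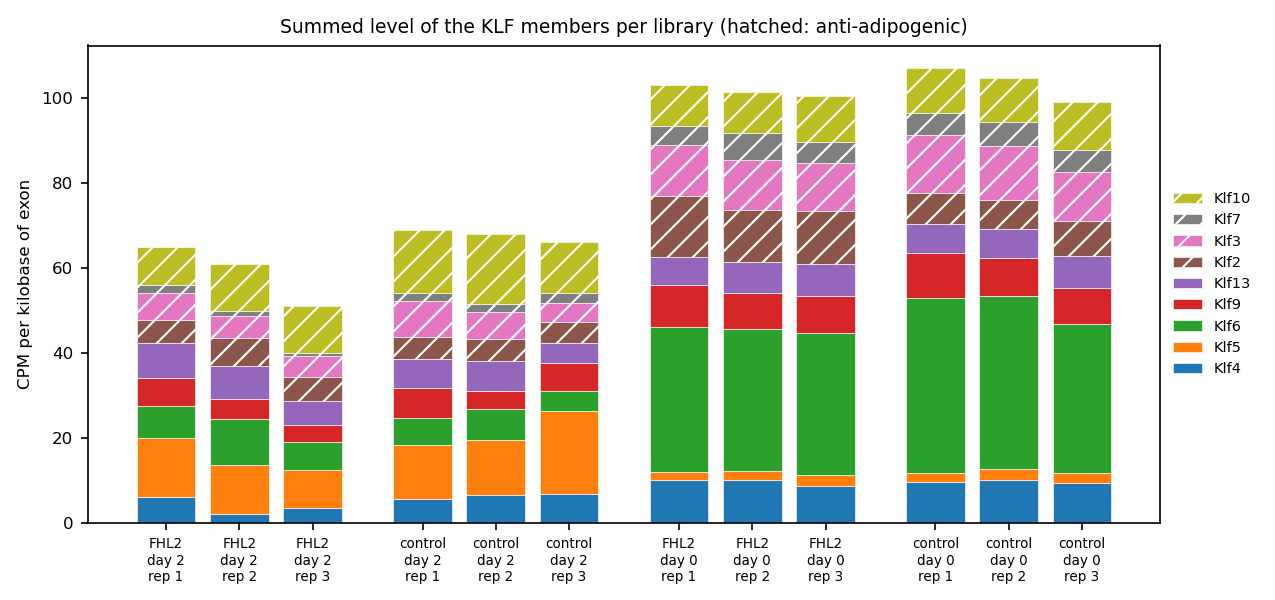
Summed level of the 9 tested members in each library, in CPM per kilobase of annotated exon, with day 2 libraries left of day 0 libraries and FHL2-labelled libraries left of control. Plain segments are pro-adipogenic and hatched segments anti-adipogenic members. The Klf6 segment dominates the day 0 libraries, and the Klf5 and Klf10 segments are the widest at day 2.

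The comparison of the lines set FHL2-labelled against control libraries, and by the main test no member differed. Each label goes with its own cells, so the construct and other differences between the lines cannot be told apart. At day 0 edgeR called 0 of 9 members (0.0485% of all genes; 1 member at an unadjusted p under 0.05, 1 by DESeq2 and 0 by limma-voom). At day 2 it called 0 of 9 as well (2.07% of all genes), with 4 at an unadjusted p under 0.05, 1 by DESeq2 and 0 by limma-voom. Of all 14435 genes, 600 at day 0 and 2611 at day 2 had an unadjusted p under 0.05. DESeq2 called 93 genes at day 0 and 997 at day 2, and limma-voom called 18 and 308. The day 2 libraries varied more (biological coefficient of variation 0.39 within day 2 and 0.12 within day 0), and all libraries share a single estimate of spread (0.283).

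**Figure D4:**
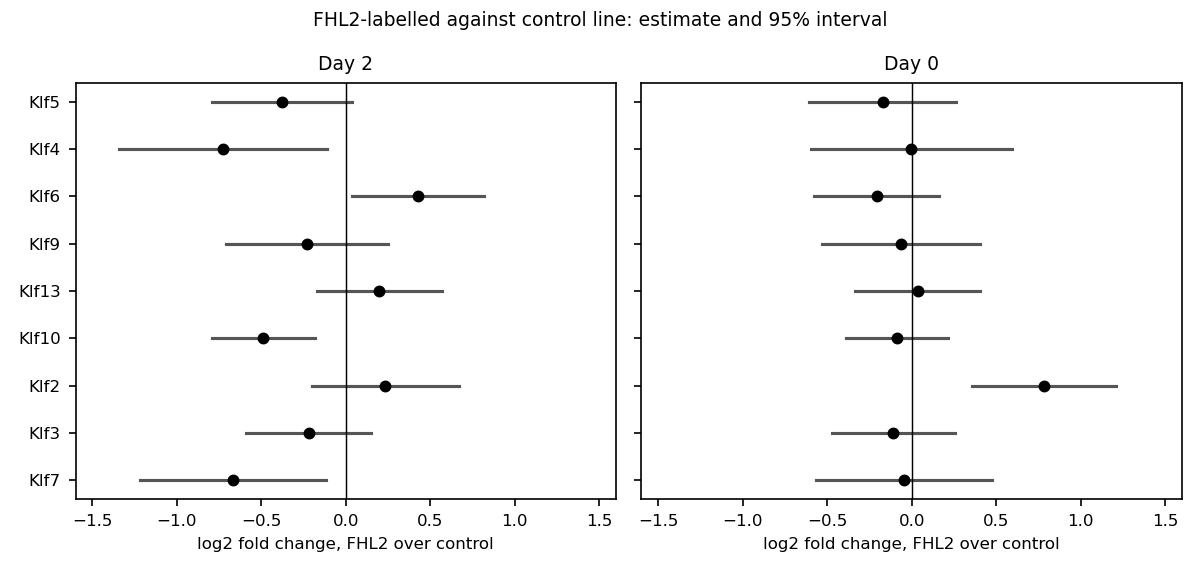
Log2 fold change of the 9 tested members in FHL2-labelled over control libraries at day 2 (left) and day 0 (right), with the 95% interval from the edgeR fit of all 12 libraries. Most intervals cross 0. Those of Klf4, Klf6, Klf7 and Klf10 at day 2 and of Klf2 at day 0 do not, and none of these 5 differences passed after adjustment over all genes.

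The largest difference between the lines among the members before induction was that of Klf2. As given above, its 3 FHL2-labelled libraries at day 0 (22.6 to 26.6 CPM) all lay above the 3 control libraries (12.8 to 15.4 CPM), a separation that 21.6% of tested genes showed. The difference was 1.72-fold (log2 fold change 0.78, SE 0.20, 95% interval 0.36 to 1.21), with an adjusted p of 0.303 in edgeR. It passed in a fit of the day 0 libraries alone (0.81, adjusted p = 0.00825), in which 1.75% of genes passed, and with DESeq2 (0.78, adjusted p = 0.00913). It did not pass with limma-voom (adjusted p = 0.0738), RLE scaling (0.290), the GC correction (0.263), the replicate block (0.506) or no filter (0.836). With each day 0 library left out in turn it ranged from 0.70 to 0.86 and never passed (lowest adjusted p = 0.688). Klf6 was the other member whose day 0 libraries did not overlap, lower in FHL2-labelled libraries (log2 fold change -0.21, 95% interval -0.58 to 0.16, adjusted p = 1.00). The other 7 members lay between -0.17 and 0.035, with interval limits from -0.61 to 0.59. By day 2 Klf2 was at 10.9 ± 0.960 in FHL2-labelled and 9.26 ± 0.353 CPM in control libraries, still without overlap (log2 fold change 0.23, 95% interval -0.20 to 0.67, adjusted p = 0.587).

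At day 2 the lower values of the FHL2-labelled line lay mostly among Klf10, Klf7, Klf4 and Klf5. Klf10 had 38.0, 46.0 and 46.1 CPM in FHL2-labelled and 62.2, 69.5 and 50.6 CPM in control libraries, which did not overlap (14.7% of tested genes did not). Its log2 fold change was -0.49 (95% interval -0.79 to -0.18, adjusted p = 0.0954), and it passed with DESeq2 (adjusted p = 0.0158) and without control day 2 replicate 3 (-0.64, adjusted p = 0.0406). Without control day 2 replicate 2 it was at -0.38 (adjusted p = 0.233). In an edgeR fit of the day 2 libraries alone no member passed. Adjusted p was then 0.4705 for Klf10, 0.663 for Klf7, 0.605 for Klf4 and 0.707 for Klf6. Klf7 had -0.67 (-1.22 to -0.11, adjusted p = 0.190) and Klf4 -0.73 (-1.34 to -0.11, adjusted p = 0.196), and in both genes the lines overlapped through FHL2-labelled replicate 1. Without that library, 1 of the 3 with the fewest genes detected, Klf7 (-1.01, adjusted p = 0.0372) and Klf4 (-1.20, adjusted p = 0.0178) passed. Klf4 was at -0.44 without FHL2-labelled replicate 2 (adjusted p = 0.329) and Klf7 at -0.41 without FHL2-labelled replicate 3 (adjusted p = 0.310). Klf5 had -0.38 (-0.79 to 0.037, adjusted p = 0.324) and Klf3 -0.22 (-0.59 to 0.15, adjusted p = 0.541). Klf6 alone among the pro-adipogenic members had an interval above 0, at 0.43 (0.035 to 0.82, adjusted p = 0.236), which was 0.17 without FHL2-labelled replicate 2, 0.24 without control replicate 3 and -0.12 without the 3 libraries of fewest genes. That fit, which keeps 1 FHL2-labelled and 2 control libraries at day 2 and takes the lone library to vary like the others, called Klf3, Klf4, Klf7 and Klf10 lower where 10.1% of all genes passed.

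Whether the change with induction differs between the lines was tested as the interaction, day 2 over day 0 in the FHL2-labelled line minus the same in control. EdgeR called 0 of 9 members (0.00693% of all genes), and DESeq2 and limma-voom called 0 each. An unadjusted p under 0.05 was found for 996 of all 14435 genes and for 1 of the 9 members. Klf6, which fell by 2.03 in the FHL2-labelled and 2.66 in the control line, had the smallest p among them (interaction 0.63, 95% interval 0.096 to 1.17, adjusted p = 0.644). It was 0.37 without FHL2-labelled day 2 replicate 2 and 0.078 without the 3 libraries of fewest genes. The interaction of Klf4 was -0.73 (-1.58 to 0.13, adjusted p = 0.763), that of Klf2 -0.55 (-1.16 to 0.060, adjusted p = 0.746) and that of Klf10 -0.40 (-0.83 to 0.031, adjusted p = 0.741). Klf7 had -0.62 (-1.38 to 0.13, adjusted p = 0.786), and it passed without the 3 libraries of fewest genes (-1.28, adjusted p = 0.0322). The call of Klf10 in control alone and that of Klf4 in the FHL2-labelled line alone are therefore not shown to differ between the lines.

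The rest of the KLF and SP family, which shares the DNA-binding domain, had members called in both directions. Of 16 further family genes 8 could be tested, and of these 1 rose and 4 fell in the FHL2-labelled line, beside 56% of all genes called, and 1 rose and 5 fell in control, beside 57.1%. After the correction for GC content 0 rose and 4 fell in the FHL2-labelled line, and 0 rose and 1 fell in control (39.9% and 39.8% of all genes passed). Sp3, a widely expressed factor that binds GC boxes, fell by 2.34 on the log2 scale in the FHL2-labelled line and by 2.32 in control, and remained called after the correction (-0.72 and -0.55, adjusted p = 0.0126 and 0.0471). Sp1, its close relative, fell by 1.20 and by 1.09, and after the correction the changes were -0.13 and 0.08 (adjusted p = 0.594 and 0.763). Klf11, a TGF-beta-inducible relative of Klf10, fell by 1.21 and by 1.04 (adjusted p = 0.0369 and 0.0812 after the correction). Klf12 fell in control (-1.71) and so did Sp4 (-2.05), while Klf16 rose (0.66 and 0.72), and none of these calls held after the correction (adjusted p from 0.121 to 0.824). Klf1, Klf14, Klf17 and Sp5 to Sp9 had too few counts.

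Cofactors and regulators of the KLFs changed in both directions. Of 14, 4 rose and 8 fell in the FHL2-labelled line, where 25.8% of all genes tested rose and 30.2% fell, and 4 rose and 6 fell in control (26.3% and 30.8% of all genes). After the correction 1 rose and 6 fell in the FHL2-labelled line (39.9% of all genes passed in either direction), and 1 rose and 4 fell in control (39.8%). The corepressor partners of Klf3 went apart. Ctbp2 fell by 1.35 on the log2 scale in the FHL2-labelled line (SE 0.25, adjusted p = 0.000382) and by 1.22 in control (SE 0.25, adjusted p = 0.000820), and by 1.94 and by 1.83 after the correction. Ctbp1 rose by 0.41 and 0.31 (adjusted p = 0.00194 and 0.0118), a direction that turned after the correction (-0.24 and -0.36, adjusted p = 0.0485 and 0.00595). Egr2, which works with Klf4 on Cebpb, fell by 1.68 (SE 0.29, adjusted p = 0.000170) and by 1.04 (SE 0.28, adjusted p = 0.00549), also after the correction (-1.92 and -1.30). Wwp1, a ubiquitin ligase that targets Klf5 and Klf2, fell by 2.49 and by 2.15, and the control call was lost after the correction (-0.83 and -0.28, adjusted p = 0.00788 and 0.337). The deacetylase Hdac2 fell by 1.54 and by 1.66, calls that both ended after the correction (-0.17 and -0.15, adjusted p = 0.472 and 0.525). Hdac3, a deacetylase of corepressor complexes that is named here after its values were seen, was the 1 cofactor that rose with and without the correction (1.02 and 0.99, and 1.45 and 1.45 after it).

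Among genes on which KLFs act, the regulators of the adipocyte programme rose. Of 16 such targets 13 were tested, of which 7 rose and 1 fell in the FHL2-labelled line and 9 rose and 1 fell in control, beside 25.8% and 26.3% of all genes that rose and 30.2% and 30.8% that fell. After the correction 8 rose and 2 fell in each line (39.9% and 39.8% of all genes passed). Cebpb, the target of Klf4, rose by 2.13 in the FHL2-labelled line and 2.54 in control on the log2 scale, and Cebpd by 3.00 and 4.104. Cebpa, restrained by Klf3, rose by 1.84 and 2.47. Pparg, on which Klf5, Klf9 and Klf2 act, rose by 1.02 (adjusted p = 0.0118) and 1.38 (adjusted p = 0.00166). Tgfbr1, a TGF-beta receptor that Klf6 activates in other cells, fell by 2.22 and by 1.84, calls that ended after the correction (adjusted p = 0.0861 and 0.639). In FHL2-labelled against control libraries edgeR called 0 of 13 targets at day 2 (2.07% of all genes) and 0 of 13 at day 0 (0.0485%). An unadjusted p under 0.05 was found for 3 targets at day 2 and 2 at day 0. Of all 14435 genes, 2611 and 600 had one. DESeq2 called 1 target at day 2 (997 of all genes) and 0 at day 0 (93), and limma-voom called 0 on both days.

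Known readouts of glucocorticoids and cyclic AMP were counted beside them. Of 14 such genes 9 rose, 1 fell and 4 did not pass in each line, where 25.8% of all genes rose in the FHL2-labelled line and 26.3% in control. After the correction 9 rose and 0 fell in the FHL2-labelled line and 10 rose and 0 fell in control (39.9% and 39.8% of all genes passed). Ppargc1a, a coactivator induced by cyclic AMP, was the gene that fell before the correction (by 2.11 in each line), and Fos, Crem and Nr4a2 did not pass in either line. Zbtb16, a zinc finger gene that glucocorticoids induce, rose by 7.25 in the FHL2-labelled line and 7.76 in control on the log2 scale, Tsc22d3 by 3.34 and 3.46, and Nr4a1, an orphan receptor induced by cyclic AMP, by 2.64 and 3.57. Klf9 and Klf4 were lower at day 2 in all libraries of their line and Klf15 was near its detection limit, as given above. Nr4a1 was the 1 gene of the family, cofactor, target and readout lists that edgeR called between the lines. It was lower in the FHL2-labelled libraries of day 2 (-0.65 on the log2 scale, adjusted p = 0.0369). Tested were 8 further family genes, 14 cofactors, 13 targets and 14 readouts. Of all genes 2.07% passed at day 2.

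The genes most like each member were sought by the Pearson correlation of log2 CPM over the 12 libraries among 9778 genes, as a description that rests largely on the difference between the days. Klf5 was nearest to Stat3 (r = 0.994), Ddx23 (0.993) and Shc1 (0.992). Klf6 was nearest to Rfx7 and Rab10 (0.993 each) and Washc5 (0.992). Klf7 was nearest to Sbf2 (0.998), Zfp106 (0.9947) and Ssc5d (0.993), and Klf3 to Sec63 (0.993), Suz12 (0.991) and Mfsd14a (0.986). Klf4 was nearest to Sh3bp5 (0.991) and Klf9 to D3Ertd751e (0.967). Klf2 (nearest to Cdsn, 0.940), Klf13 (Camkk2, 0.933) and Klf10 (Abca7, 0.912) had lower best values. Among the members themselves Klf5 and Klf6 were the most opposed (r = -0.973), and Klf3 and Klf6 the most alike (0.921).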

How the data were processed

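RNA from 12 libraries, 4 groups of 3 by the sample labels, was prepared as stranded polyA libraries per the labels' protocols. The values are raw read counts per Ensembl gene, as deposited by the authors, and the submitters' processing notes name the build GRCm39 (mm39) and, in no order, HTSeq 0.11.0, HISAT2 2.2.1, limma, Trimmomatic 0.39, R 4.1.0 and FastQC 0.11.9. No source used here gives their order, settings, annotation or treatment of strand.

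The test was edgeR 4.0.16 (R 4.3.3): filterByExpr by group (14435 genes), TMM, a quasi-likelihood fit with 1 mean per group over all 12 libraries, and Benjamini-Hochberg adjustment over all genes tested (called under 0.05, 2-sided). The fit was tested on simulated data. SE is the absolute log2 fold change over the root of F. GC content (99.8% of tested genes) and exon length came from GENCODE M21, on GRCm38, by gene identifier. The GC correction adds a spline offset per library (6 degrees of freedom). Alternatives were RLE scaling, no filter, DESeq2 1.42.0, limma-voom (limma 3.58.1), only the libraries compared, the replicate block, omission of each library, and omission of the 3 day 2 libraries with the fewest genes. The members were given, and lists named up to 4 called genes per comparison with a mean of at least 5 CPM, besides genes always considered. Members, lists and alternatives were chosen with earlier results of these data known. Equal replicate numbers did not deviate together (correlations of deviations from -0.0862 to 0.105), so they were not taken as pairs.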

Additional observations from a re-analysis of the deposited data

How the results depend on the processing

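Klf5, Klf6, Klf7 and Klf3 with induction kept direction and call in both lines in all alternatives but the correction for GC content, which ended those of Klf3 (both lines) and Klf7 (control). Members called with induction in control numbered 7, where 8246 of 14435 genes passed, and 4 to 7 without 1 library. They were 4 without day 0 replicate 1 (7092 of 14871 genes) and without day 2 replicate 2 (8067 of 15082 genes). Limma-voom called 8 (8820 of 14435 genes). After the GC correction 6 were called (5748 of 14435 genes), of which 4 were among the 7. FHL2 against control at day 0 (0 called) gained 1, Klf2, with DESeq2, with only the libraries compared and without the 3 libraries of fewest genes (0.79, adjusted p = 0.0212). At day 2 (0 called) it gained 1, Klf10, with DESeq2, 4 without those 3 libraries (Klf4 -0.85, Klf3 -0.62, Klf7 -1.31, Klf10 -0.54), and 0 to 2 without 1 library. The interaction gained 1 without them, Klf7 (-1.28, adjusted p = 0.0322). With the replicate block the counts were 0, 0, 7, 7 and 0, as in the fit without it, so no call changed. Over all genes, calls between the lines at day 0 numbered 7, against 69 without the filter, 93 with DESeq2, 18 with limma-voom, 246 with only the libraries compared, 11 with the replicate block, 14 after the GC correction, 135 without the 3 libraries and 1 to 5 without 1 library. At day 2 they numbered 299, against 846 without the filter, 997 with DESeq2, 39 with only the libraries compared, 1606 without the 3, 146 without FHL2 day 2 replicate 2 and 197 without control day 2 replicate 1 (146 to 404 without 1 library). The interaction had 1, against 91 without the filter, 73 with DESeq2, 2 after the GC correction, 243 without the 3 and 0 to 6 without 1 library.

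Directions turned in values that had not passed. Klf13 with induction in the FHL2-labelled line (0.0034) was -0.0082 with RLE scaling, -0.023 without the filter, -0.0083 with DESeq2, -0.024 with limma-voom, -0.012 with the block, -0.61 after the GC correction and -0.34 without the 3 libraries. Without these 3, Klf13 in control was 0.051, its interaction -0.39, and FHL2 against control at day 2 -0.35 for Klf13 and -0.12 for Klf6. Klf4 at day 0 was 0.023 with only the libraries compared and 0.010 without the 3. Without 1 library, FHL2 against control at day 0 ranged from -0.036 to 0.062 for Klf4, -0.14 to 0.041 for Klf9, -0.0064 to 0.097 for Klf13 and -0.19 to 0.055 for Klf7, and at day 2 from -0.45 to 0.014 for Klf3. Klf13 ranged from -0.23 to 0.061 in control and -0.064 to 0.17 in FHL2-labelled libraries with induction, Klf10 from -0.0084 to 0.15 in FHL2-labelled libraries, and the interactions of Klf13 from -0.043 to 0.29 and of Klf3 from -0.36 to 0.11. The cause was not tested.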
